A study of Mus musculus with 4 samples.

Results

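The genes of non-homologous end joining, the pathway that rejoins broken DNA ends without a template, were followed through blood cell types in mouse bone marrow. The 10 members, of 32285 genes in the count table, were taken by symbol: Xrcc6, Xrcc5, Prkdc, Dclre1c, Xrcc4, Lig4, Nhej1, Paxx, Trp53bp1 and Rif1. No measured value entered their choice. The cells were haematopoietic stem and progenitor cells from the bone marrow of C57BL/6 recipients, taken 20 weeks after competitive transplantation and recognised as donor-derived by CD45.2. The labels give 2 samples of Srcap mutant donor cells, heterozygous per the series design, and 2 samples of WT donor cells. Srcap encodes a chromatin remodelling ATPase that exchanges H2A for the variant H2A.Z. The labels do not describe the Srcap allele, nor the number of mice behind a sample.

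Single-cell RNA sequencing with a 3′ droplet assay gave 1 matrix of UMI counts (unique molecular identifiers, each standing for 1 captured transcript), in which a barcode suffix separates 4 libraries. The labels do not say which sample a suffix stands for, so mutant cells are not set against WT cells, and the suffixes are called libraries 1 to 4. All comparisons are between cell types within a library. The libraries held 9511 to 13301 barcodes and 9026 to 12418 cells after filtering, with medians of 9824 to 10226.5 UMIs per cell. With the genotypes unknown, libraries cannot serve as replicates, so each library's value is given, without a mean, SD or p-value. Intervals are 95% exact Poisson intervals, or exact binomial ones for ratios, and cover counting error only.

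In non-homologous end joining the Ku heterodimer of Ku70 (Xrcc6) and Ku80 (Xrcc5) encircles a broken DNA end and recruits the kinase DNA-PKcs (Prkdc). The nuclease Artemis (Dclre1c) trims ends and opens hairpins, the XRCC4 and DNA ligase IV complex (Xrcc4, Lig4) seals them with the help of XLF (Nhej1) and PAXX, and 53BP1 and RIF1 (Trp53bp1, Rif1) restrain the resection that leads to homologous recombination. Lymphoid progenitors depend on the pathway, since the RAG recombinase cuts antigen receptor genes on purpose during V(D)J recombination and end joining closes the cuts, with terminal transferase (Dntt) adding bases at the joints.

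Cells were placed by UMIs of marker genes, none of them a member. The stem gate required transcripts of at least 2 of 6 stem cell genes such as Procr and Hlf. The lymphoid gates followed a sequence: the Dntt stage (at least 2 Dntt UMIs, no Il7r), the Il7r stage (Il7r, the interleukin 7 receptor, little Igll1) and the Igll1 stage (at least 3 UMIs of the surrogate light chain gene Igll1). The megakaryocyte gate rested on Pf4 and Itga2b and the myeloid gate on Mpo and Elane. The gates as planned excluded every cell with an Nkg7 UMI from the Dntt and Il7r stages, but Nkg7, a cytotoxic cell gene, had a UMI in 6620 of 8209 cells with 2 or more Dntt UMIs (80.6%). Levels are therefore given for gates without the Nkg7 condition, called the wide gates and added after the data had been seen, and calls are given for both versions. The wide gates held 7263 stem, 4514 Dntt stage, 870 Il7r stage, 904 Igll1 stage, 2298 megakaryocyte and 1291 myeloid cells. The planned gates held 569 Dntt stage and 121 Il7r stage cells, and only libraries 2 and 3 had 30 or more of the Il7r cells.

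Marker genes of the stem, myeloid and megakaryocyte lists, none of them used for gating, were highest in their own gate when summed. This did not hold for all lymphoid lists. Summed over a list, stem cell genes stood at 960 to 1616 CPM (UMIs per 1000000 UMIs of the gate and library) in stem cells of the 4 libraries. Granule and myeloid genes stood at 10692 to 12773 CPM in myeloid cells, against 423 to 531 CPM in stem cells. Platelet genes stood at 211 to 300 CPM in megakaryocyte cells, against 109 to 196 CPM in stem cells. The list checked for the Il7r stage (Rag1, Rag2, Blnk, Ebf1) stood at 13.97 to 17.7 CPM in the Dntt stage, 121 to 163 CPM in the Il7r stage and 2043 to 2221 CPM in the Igll1 stage. The list checked for the Dntt stage (Flt3, Satb1, Notch1, Gimap6, Arpp21) stood at 606 to 731 CPM there and higher in the Il7r stage, at 950 to 1181 CPM. Flt3 was also used in gating: stem cells had to hold none of its UMIs, and a Flt3 UMI could admit a cell to the Il7r stage. This list is therefore not independent of those gates. A list of 4 T and NK cell genes included Nkg7, Cd3e and Cd3g, which were also used in gating. The list stood at 71.6 to 149 CPM in stem, 254 to 293 CPM in Dntt stage, 254 to 296 CPM in Il7r stage and 52.6 to 82.1 CPM in Igll1 stage cells. It stood at 163 to 288 CPM in megakaryocyte cells and was highest in myeloid cells, at 740 to 783 CPM. Its part in the results was not tested. Transcripts of 32 cycle genes also differed: 13.4% of stem, 42.5% of Dntt stage, 50.7% of Il7r stage and 92.8% of Igll1 stage cells held at least 30 cycle UMIs per 10000, as did 59.2% of megakaryocyte and 69.9% of myeloid cells.

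Xrcc6 rose from stem cells through the Dntt stage to the Il7r stage in every library. Xrcc5, which encodes the other subunit of the same dimer, was not called higher than in stem cells at any stage. Xrcc6 (ENSMUSG00000022471) lies on chromosome 15 of GRCm38 at 81987835 to 82040085, forward strand. Xrcc5 (ENSMUSG00000026187) lies on chromosome 1 at 72307421 to 72394952, also forward. The 250 bases before their RefSeq transcription starts are printed because the subunits' transcripts parted between cell types. Xrcc6 is at chr15:82016119-82016368 and Xrcc5 at chr1:72307171-72307420, both on the forward strand of GRCm38.p6, and the RefSeq start of Xrcc6 lies inside the longer annotated gene. Capitals mark matches to any of 5 searched motifs, of which GGGCGG (the GC box) and CCAAT matched here.
Xrcc6: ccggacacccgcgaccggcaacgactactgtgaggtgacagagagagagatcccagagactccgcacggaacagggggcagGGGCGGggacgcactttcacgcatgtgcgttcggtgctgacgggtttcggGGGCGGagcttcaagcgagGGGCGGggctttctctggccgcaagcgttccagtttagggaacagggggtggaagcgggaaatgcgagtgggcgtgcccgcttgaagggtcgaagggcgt
Xrcc5: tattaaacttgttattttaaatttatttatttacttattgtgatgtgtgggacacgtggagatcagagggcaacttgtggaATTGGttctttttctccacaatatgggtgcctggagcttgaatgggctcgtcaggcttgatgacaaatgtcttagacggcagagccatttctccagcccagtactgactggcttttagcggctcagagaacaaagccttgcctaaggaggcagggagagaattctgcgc

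The Xrcc6 window held 3 GC boxes, at 169, 119 and 100 bases before the start, and 65.2% G or C. The Xrcc5 window held no GC box, 1 CCAAT box on the reverse strand and 44.8% G or C, against a median of 52.4% over all promoters of that length. Of 32851 promoters, 32.7% held a GC box and 33.8% a CCAAT box, counting both strands. Among members, 8 had a promoter entry, of which 7 held a GC box and 2 a CCAAT box. CAGGTG (an E-box, in 17.2% of all promoters), TTTNGCGC (E2F-like, 1.13%) and GTAAACA (forkhead, 3.17%) matched none of the 8. Such matches describe letters and say nothing of binding.

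In stem cells, Xrcc6 stood at 35.2, 36.7, 35.6 and 31.5 CPM in libraries 1 to 4. In the Dntt stage it stood at 74.4, 82.2, 74.9 and 73.5 CPM. In the Il7r stage it reached 192, 186, 183 and 166 CPM, counted from 399 to 659 UMIs per library. The Igll1 stage held 117, 109, 131 and 125 CPM. The 4 stages did not overlap, and the order of the gates by Xrcc6 was Il7r, Igll1, Dntt, megakaryocyte, stem and myeloid. Only the last 2 of these overlapped, with megakaryocyte cells at 44.4, 47.1, 43.9 and 42.0 CPM and myeloid cells at 37.9, 35.2, 31.9 and 31.2 CPM.

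A gene was called when it differed by at least 1.5-fold, on the scale of CPM plus 1, in the same direction in every library with at least 30 cells on each side, which sets a size and involves no test. Over all genes with at least 5 CPM on average over both sides, 3.51% were called higher and 6.33% lower in the Dntt stage than in stem cells with the planned gates. Of 8 members tested there, Xrcc6 was the only one called, with a median log2 ratio of 1.11 (1.08 to 1.32 over the libraries). The wide gates gave a median log2 ratio of 1.10 (1.05 to 1.20), with Xrcc6 again the only member called of 9 tested, against 4.94% of all genes higher and 9.14% lower. From the Dntt to the Il7r stage, the wide gates gave 1.22 (1.17 to 1.35) for Xrcc6, alone among 9 members, where 1.61% of all genes were called higher and 1.09% lower. The planned gates gave 1.34 (1.29 to 1.40) in the 2 libraries they reached, with 4.90% of genes higher and 5.67% lower. They also called Nhej1 (0.67), from only 3 and 4 UMIs in the Il7r stage and 7 and 9 in the Dntt stage. The wide gates did not call Nhej1 (0.06, from -0.43 to 0.58). Set directly against stem cells, Il7r stage cells had a log2 ratio of 2.35 for Xrcc6 (2.31 to 2.41), where 7.20% of genes were called higher and 11.3% lower.

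Xrcc5 stood at 32.1, 37.3, 30.8 and 26.9 CPM in stem cells, 24.9, 29.7, 21.7 and 20.4 CPM in the Dntt stage, 23.6, 20.8, 14.99 and 22.1 CPM in the Il7r stage and 17.5, 21.1, 23.5 and 12.7 CPM in the Igll1 stage. Neighbouring stages overlapped throughout this sequence. The log2 ratio of the Il7r stage to stem cells was -0.62 (-0.99 to -0.27), which was below 0 in every library and not called. With the planned gates it was -1.27 and called lower in the 2 libraries reached, where 7.55% of all genes were called higher and 12.9% lower, from only 4 and 5 Xrcc5 UMIs in the Il7r stage. Megakaryocyte cells held Xrcc5 at 33.3, 37.8, 36.6 and 29.1 CPM, which overlapped stem cells. Myeloid cells held it at 9.28, 8.32, 6.23 and 5.96 CPM, below every library of the other 5 gates.

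The ratio of Xrcc6 UMIs to Xrcc5 UMIs within a gate needs no scaling to library size. Capture can differ between the transcripts, so the ratio does not give the proportion of the subunits, but it can be set beside itself across gates. It was 1.10, 0.983, 1.15 and 1.17 in stem cells of libraries 1 to 4, then 2.98, 2.76, 3.45 and 3.60 in the Dntt stage. It was 8.14, 8.95, 12.2 and 7.53 in the Il7r stage and 6.66, 5.14, 5.55 and 9.82 in the Igll1 stage, so the Il7r stage was higher than the Igll1 stage in libraries 1 to 3 and lower in library 4. Megakaryocyte cells were near stem cells, at 1.33, 1.25, 1.20 and 1.44. Myeloid cells had 4.09, 4.23, 5.12 and 5.23, from a low Xrcc5 level at a stem-like Xrcc6 level. In every library the Dntt, Il7r and Igll1 stages lay above stem and megakaryocyte cells with no overlap of their 95% exact intervals.

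**Figure D1:**
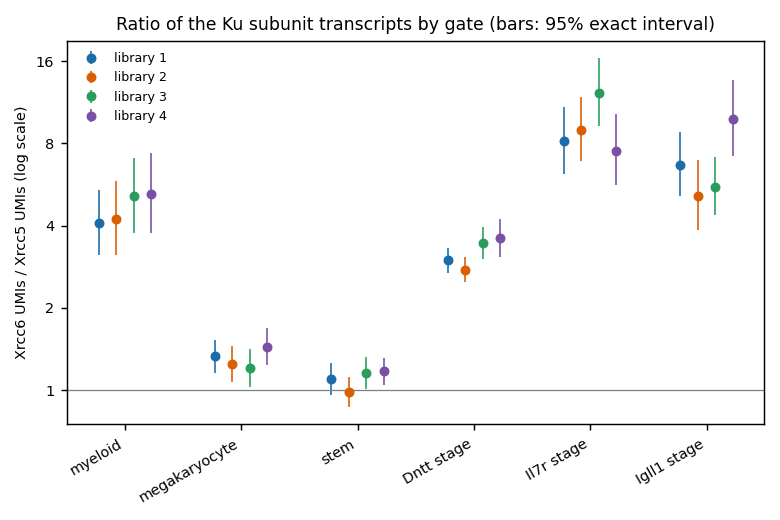
Ratio of Xrcc6 to Xrcc5 UMIs (vertical axis, log scale) in 6 marker gates, wide version, with 1 point for each library and bars for the 95% exact binomial interval. Stem and megakaryocyte cells lie between 0.983 and 1.44, while all points of the Dntt, Il7r and Igll1 stages and of myeloid cells lie at 2.76 or above.

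Cycling differed between the gates, so the ratios were also taken among cells with few cycle UMIs (at most 10 per 10000) and among cells with many (at least 30), limits added after the data had been seen. Among low-cycle cells Xrcc6 was higher still in the Il7r stage than in stem cells, with a log2 ratio of 3.07 (2.99 to 3.23), against 5.74% of genes called higher and 8.80% lower. The Dntt stage had 1.56 (1.42 to 1.74) over stem cells, with 4.48% of genes called higher and 7.19% lower. The Il7r stage had 1.57 (1.34 to 1.60) over the Dntt stage, with 1.57% called higher and 1.24% lower. Xrcc5 was called lower in the Il7r stage than in stem cells, at -1.51 (-2.60 to -0.70), from 3 to 7 UMIs per library. Among high-cycle cells the Il7r stage kept a log2 ratio of 1.80 (1.66 to 1.88) for Xrcc6, with 4.05% of genes called higher and 7.62% lower. Over the Dntt stage it had 1.17 (1.03 to 1.34), with 1.27% called higher and 0.981% lower. The Dntt stage among high-cycle cells had 0.64 (0.43 to 0.71), which was no longer called, where 2.46% of genes were called higher and 5.30% lower. The Xrcc6 to Xrcc5 ratio had a median of 24.8 (17.0 to 63.7) in low-cycle Il7r stage cells and 6.95 (6.73 to 9.95) in high-cycle ones.

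Within the annotation, Desi1 overlaps Xrcc6 on the opposite strand, and the overlap ends 6223 bases before the 3′ end of Xrcc6. Whether counting used strand is not given in the sources used here. The median level of Desi1 was 20.6 CPM in stem, 32.3 CPM in Dntt stage, 46.1 CPM in Il7r stage and 68.3 CPM in Igll1 stage cells, so its highest level was in the Igll1 stage and that of Xrcc6 in the Il7r stage. Its part in the Xrcc6 counts was not tested.

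Prkdc (ENSMUSG00000022672; chromosome 16, 15637866 to 15842235, forward), the kinase that Ku recruits, varied little between cell types. Its lowest gate median was 19.3 CPM in the Igll1 stage and its highest 29.5 CPM in megakaryocyte cells, a ratio of 1.53, and all neighbours in the order of gates overlapped. Stem cells held it at 23.1, 27.2, 15.7 and 17.5 CPM, and Il7r stage cells at 25.6, 25.4, 20.0 and 23.8 CPM. Spread between libraries was thus as wide as the spread between gates. Megakaryocyte cells were above stem cells in every library, with a log2 ratio of 0.48 (0.36 to 0.75), and were not called.

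Dclre1c (ENSMUSG00000026648; chromosome 2, 3424131 to 3464130, forward), encoding the hairpin-opening nuclease Artemis, had few UMIs in every gate. With the wide gates its medians ran between 5.24 CPM in myeloid and 8.97 CPM in Il7r stage cells, and all neighbours in that order overlapped. The planned Dntt stage held more, at 16.6, 13.2, 15.6 and 9.46 CPM, from 9 to 22 UMIs per library. Centred on the median of all genes, the log2 ratio of the Il7r to the Dntt stage was -1.05 with the planned gates. It was 0.32 with the wide gates. The planned Il7r stage held only 4 and 1 Dclre1c UMIs in the 2 libraries reached. Il7r stage cells held 10.2, 14.9, 7.77 and 6.25 CPM, from 15 to 45 UMIs per library. Myeloid cells held 4.99, 6.59, 5.49 and 4.47 CPM, against 9.03, 12.6, 8.58 and 8.57 CPM in stem cells. The log2 ratio of -0.78 (-0.84 to -0.56) fell short of a call in 1 library. Suv39h2 overlaps the 3′ end of Dclre1c on the opposite strand, with gate medians of 12.96 CPM in myeloid and 6.997 CPM in stem cells.

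The levels of all members by gate and library, wide version, show how uneven this pathway was. Lig4, Xrcc6 and Xrcc5 had a highest gate median 7.96, 5.50 and 4.80 times the lowest, while the other 7 members stayed between 1.46 and 2.28 times.

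**Figure D2:**
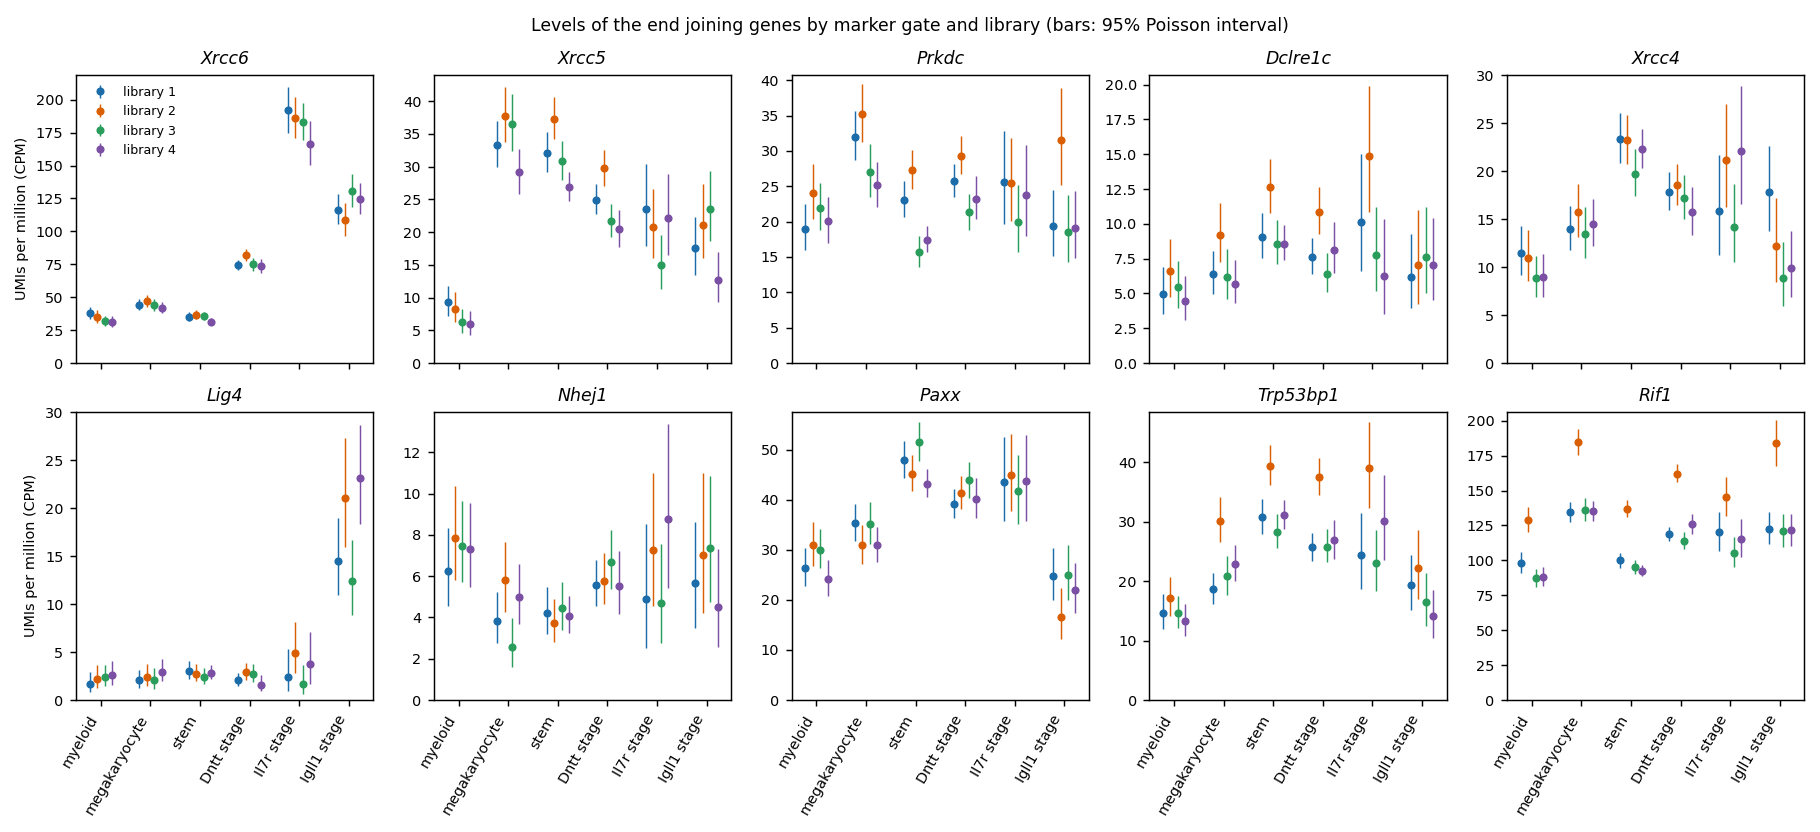
Levels of the 10 genes in CPM (vertical axes, from 0, each with its own range) in 6 marker gates, wide version, with 1 point for each library and bars for the 95% Poisson interval. Xrcc6 stands highest in the Il7r stage, Lig4 in the Igll1 stage, and Xrcc5 lowest in myeloid cells, while library 2 lies above the others for Rif1 in every gate.

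Of the ligation complex, Lig4 was high in the Igll1 stage, where its partner Xrcc4 was not. Lig4 (ENSMUSG00000049717; chromosome 8, 9969049 to 9977686, reverse), DNA ligase IV, stood at 2.99, 2.74, 2.37 and 2.81 CPM in stem cells of libraries 1 to 4 and at 2.08, 2.92, 2.74 and 1.61 CPM in the Dntt stage. Il7r stage cells held 2.44, 4.95, 1.67 and 3.75 CPM, from 6, 15, 6 and 9 UMIs. The Igll1 stage held 14.5, 21.1, 12.4 and 23.1 CPM, from 54, 57, 42 and 82 UMIs, and overlapped no other gate. Megakaryocyte cells (2.06 to 2.95 CPM) and myeloid cells (1.66 to 2.57 CPM) were at the level of stem cells. The log2 ratio of the Igll1 stage to the Il7r stage was 2.25 (1.89 to 2.34), and to stem cells 2.28 (1.96 to 2.66). Over all genes, 5.78% were called higher and 13.0% lower in the Igll1 than in the Il7r stage, and 12.5% higher and 25.4% lower than in stem cells. Lig4 passed the filter on low levels only through the Igll1 stage, so it had to differ there. Its ratios describe its levels and are no support, and the shares of all genes apply to the other members. With the wide gates Paxx was called lower in the first comparison, and in the second Xrcc6 was called higher and Paxx and Trp53bp1 lower. Among high-cycle cells alone, the Lig4 log2 ratio of the Igll1 stage to stem cells was 2.43 (2.05 to 3.04), a description for the same reason. With the planned gates the Il7r stage held 7 Lig4 UMIs in library 2 and 0 in library 3, the 2 libraries reached, which gives no usable ratio between the Igll1 and Il7r stages.

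RefSeq gives Lig4 more than 1 transcription start. The 250 bases before the upstream one (chr8:9977681-9977930) and before a downstream one (chr8:9976312-9976561), both on the reverse strand of GRCm38.p6, are printed because Lig4 was the member with the widest range between cell types. Capitals mark the same motifs.
Lig4 upstream start: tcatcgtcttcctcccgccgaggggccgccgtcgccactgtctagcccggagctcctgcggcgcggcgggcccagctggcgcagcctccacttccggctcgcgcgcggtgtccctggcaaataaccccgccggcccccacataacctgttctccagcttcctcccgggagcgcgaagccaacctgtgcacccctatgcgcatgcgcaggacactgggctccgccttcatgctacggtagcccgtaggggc
Lig4 downstream start: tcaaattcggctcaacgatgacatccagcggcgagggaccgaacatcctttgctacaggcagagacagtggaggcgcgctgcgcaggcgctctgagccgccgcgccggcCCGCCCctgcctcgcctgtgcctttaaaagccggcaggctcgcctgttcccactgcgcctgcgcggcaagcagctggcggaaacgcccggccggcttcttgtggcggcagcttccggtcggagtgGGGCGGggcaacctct

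The upstream window matched none of the 5 motifs and was 70.0% G or C. The downstream window held 2 GC boxes, at 141 bases before the start on the reverse strand and at 16 bases on the forward strand, and was 68.4% G or C. A 3′ assay does not tell which start was used.

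Xrcc4 (ENSMUSG00000021615; chromosome 13, 89774027 to 90089608, reverse), the scaffold that stabilises ligase IV, was highest in stem cells, at 23.3, 23.2, 19.7 and 22.3 CPM. The Dntt stage held 17.8, 18.5, 17.2 and 15.7 CPM, the Il7r stage 15.9, 21.1, 14.2 and 22.1 CPM and the Igll1 stage 17.8, 12.2, 8.83 and 9.86 CPM. In the Igll1 stage Xrcc4 was below stem cells in every library while Lig4 was above, with a log2 ratio of -0.97 (-1.10 to -0.37) that was not called because of library 1. Myeloid cells held 11.5, 11.0, 8.85 and 8.94 CPM and were called lower than stem cells. The antisense gene Gm4117 covers the 3′ end of Xrcc4 and had gate medians of 0.665 to 2.76 CPM.

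Nhej1 (ENSMUSG00000026162; chromosome 1, 74967139 to 75125200, reverse), encoding XLF, which bridges ends with XRCC4, was the member that ran highest in myeloid cells. They held 6.23, 7.85, 7.48 and 7.31 CPM, against 4.22, 3.75, 4.44 and 4.07 CPM in stem cells, with no overlap. The log2 ratio was 0.68 (0.47 to 0.90), short of a call in library 1. Nhej1 was under 5 CPM in stem cells and passed the filter there only through myeloid cells. The lymphoid stages lay between, with medians of 5.68, 6.07 and 6.35 CPM in the Dntt, Il7r and Igll1 stages, each overlapping its neighbours.

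Paxx (ENSMUSG00000047617; chromosome 2, 25455141 to 25461094, reverse), the paralog of XRCC4 and XLF that binds Ku, was steady up to the Il7r stage and lower in the Igll1 stage. It stood at 47.9, 45.2, 51.5 and 43.2 CPM in stem cells, 39.1, 41.3, 43.8 and 40.1 CPM in the Dntt stage and 43.5, 44.9, 41.6 and 43.8 CPM in the Il7r stage. The Igll1 stage held 24.8, 16.7, 25.01 and 22.0 CPM, from 45 to 92 UMIs, and overlapped no other lymphoid stage. It was called lower in the Igll1 than in the Il7r stage, at -0.88 (-1.38 to -0.71) with the wide gates and -0.93 (-0.998 to -0.864) in the 2 libraries of the planned gates. Among high-cycle cells the value was -0.95 (-1.45 to -0.78), with 4.10% of genes called higher and 10.7% lower. Lig4 and Paxx thus moved in opposite directions at the same step, and Xrcc6 was lower there by a log2 ratio of -0.60 (-0.77 to -0.42), not called. The planned gates called 4 of 10 members at this step in the 2 libraries reached, Xrcc5 higher and Xrcc6, Paxx and Trp53bp1 lower, against 10.4% of all genes higher and 17.0% lower. Their Il7r stage held only 4 and 5 Xrcc5 UMIs and 13 and 9 Trp53bp1 UMIs. Of these 4 members the wide gates called only Paxx, and Xrcc5 changed sign. The median of all genes at this step was -0.15 with the wide gates. Centred on it, Paxx kept -0.71. The centred value of Lig4 was 2.38, a description, since Lig4 passed the filter only through the Igll1 stage.

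Trp53bp1 (ENSMUSG00000043909; chromosome 2, 121193281 to 121271407, reverse), encoding 53BP1, which holds back resection of ends, was highest in stem cells, at 30.7, 39.3, 28.2 and 31.1 CPM. The Il7r stage held 24.4, 39.0, 23.0 and 30.02 CPM and the Igll1 stage 19.4, 22.2, 16.5 and 14.1 CPM. The Igll1 stage was called lower than stem cells, at -0.77 (-1.09 to -0.64), as was Paxx at -0.98 (-1.39 to -0.92). All genes had a median of -0.26 in that comparison, and centred on it Trp53bp1 was at -0.52 and no longer called. Tubgcp4 overlaps the 3′ end of Trp53bp1 on the opposite strand, with gate medians of 14.6 to 18.7 CPM.

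Rif1 (ENSMUSG00000036202; chromosome 2, 52072832 to 52122383, forward), the effector that 53BP1 recruits and that also times DNA replication, had gate medians within 1.46 times of each other. It stood at 134, 185, 136 and 135 CPM in megakaryocyte cells, against 100, 137, 95.1 and 92.6 CPM in stem cells, a log2 ratio of 0.47 (0.42 to 0.54) that was not called. Library 2 was highest in every gate.

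Myeloid cells held less Xrcc5, Xrcc4 and Trp53bp1 than stem cells in every library. Of 9 members tested there, 3 were called lower and none higher, against 24.0% of all genes called lower and 11.0% higher, a share of members near the background. Xrcc5 had a log2 ratio of -2.02 (-2.14 to -1.69), Xrcc4 one of -1.04 (-1.23 to -0.96) and Trp53bp1 one of -1.09 (-1.17 to -0.91). Myeloid cells held Trp53bp1 at 14.7, 17.1, 14.6 and 13.3 CPM, below all libraries of stem cells. Paxx had -0.79 (-0.84 to -0.53) and was not called, and Xrcc6, Prkdc and Rif1 stood near even at -0.04, 0.01 and -0.08. The median of all genes was -0.21, and centred on it Xrcc5 was at -1.79, Xrcc4 at -0.84 and Trp53bp1 at -0.87, all still called. Centring also called Nhej1 higher at 0.88. Nhej1 was under 5 CPM in stem cells and passed the filter only through myeloid cells, so this call is no support. Among high-cycle cells the same 3 members were called, Xrcc5 at -1.99 (-2.06 to -1.82), Xrcc4 at -0.88 and Trp53bp1 at -0.98, where 5.72% of genes were called higher and 18.0% lower. Myeloid cells also held more UMIs, with a median of 21807 per cell against 7788 in stem cells.

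In megakaryocyte cells none of 8 members tested was called, where 6.37% of all genes were called higher and 9.34% lower than in stem cells. Rif1, Prkdc and Xrcc6 (0.34, from 0.30 to 0.40) were above stem cells in every library. Xrcc4 (-0.56), Paxx (-0.50), Dclre1c (-0.43) and Trp53bp1 (-0.43) were below in every library. Among high-cycle cells alone the log2 ratios of Rif1, Prkdc and Xrcc6 were -0.06, 0.02 and 0.06, with 1.24% of genes called higher and 3.09% lower. Paxx and Trp53bp1 had -0.42 and -0.45, and Xrcc4 had -0.35 (-0.58 to -0.15). Dclre1c had 0.01 (-0.51 to 0.11) and was above stem cells in 2 of 4 libraries. Among low-cycle cells none of 8 members was called either, with 1.21% of genes called higher and 1.98% lower.

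**Figure D3:**
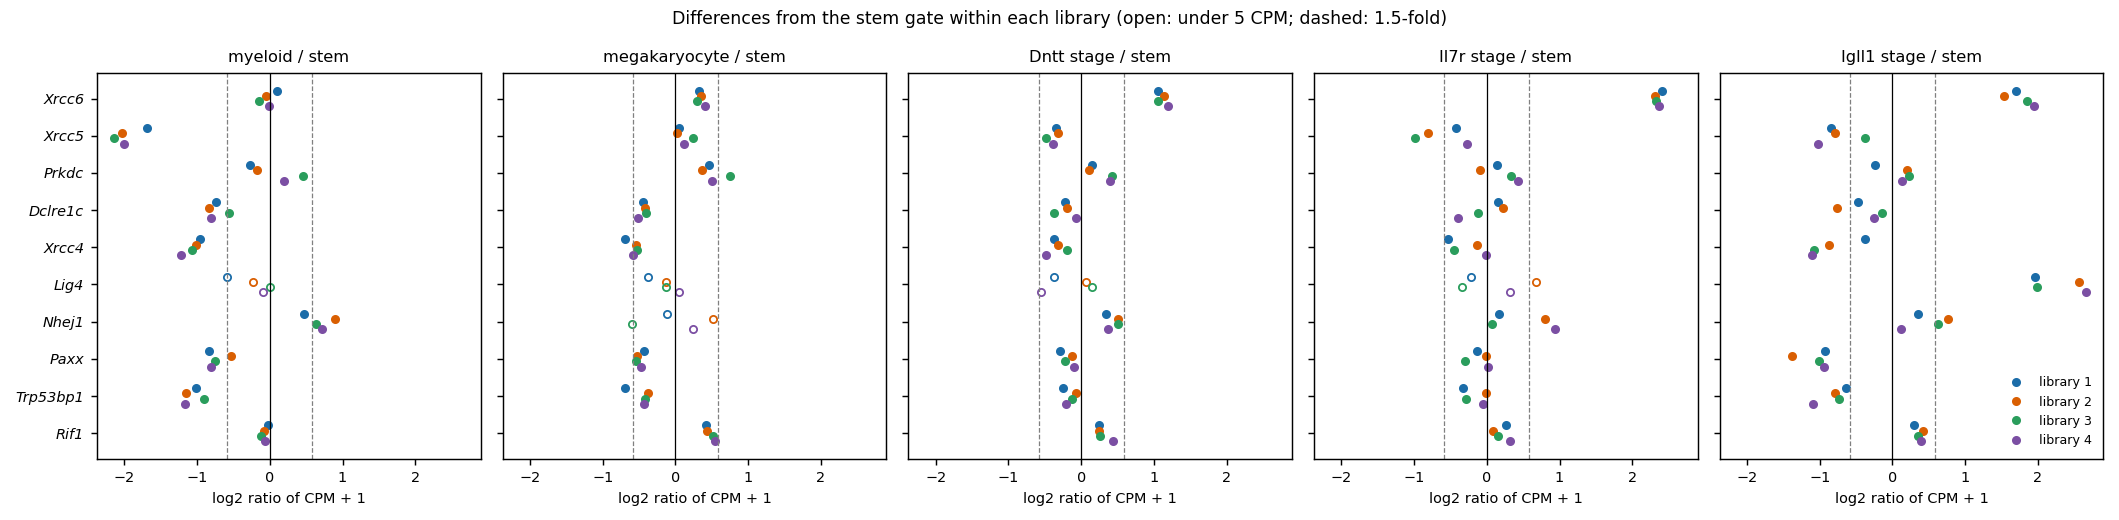
Log2 ratios of CPM plus 1 of 5 gates to stem cells of the same library (horizontal axes) for the 10 genes, wide gates, with 1 point for each library, open where the gene was under 5 CPM over both sides, and dashed lines at 1.5-fold. Xrcc6 lies near 0 in myeloid cells, above 0 in every library of megakaryocyte cells and between 2.31 and 2.41 in the Il7r stage. Xrcc5 in myeloid cells lies between -2.14 and -1.69.

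High-cycle cells were set against low-cycle cells of the same gate. The contrasts planned for this, with stricter limits on resting cells, had no library with 30 resting cells. Rif1 was called higher in high-cycle cells of the stem gate, the Dntt stage and the Il7r stage. In stem cells it stood at 134, 200, 154 and 147 CPM in high-cycle cells, against 76.0, 95.8, 70.5 and 74.7 CPM in low-cycle cells, a log2 ratio of 1.01 (0.81 to 1.12). In the Dntt stage it stood at 137, 185, 136 and 143 CPM, against 63.5, 87.6, 68.9 and 78.1 CPM (1.02, from 0.87 to 1.10). The Il7r stage gave 0.94 (0.92 to 1.40), and megakaryocyte cells 0.72 (0.41 to 0.84), which was not called. Over all genes, 8.98%, 7.86%, 6.09% and 5.88% were called higher in these 4 gates, and 5.55%, 5.08%, 2.91% and 3.12% lower. Rif1, within 1.46 times between gate medians, thus differed more between high-cycle and low-cycle cells of 1 gate.

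Dclre1c ran the other way. It stood at 4.69, 9.20, 4.06 and 6.98 CPM in high-cycle cells of the Dntt stage, against 17.0, 15.9, 12.8 and 12.8 CPM in low-cycle cells, and was called lower at -1.12 (-1.66 to -0.73). It was also called lower in the Il7r stage, at -1.54 (-1.83 to -0.84), from 4 to 15 UMIs per library in low-cycle cells. The stem gate gave -0.59 (-0.64 to -0.18), not called. Xrcc6 was called lower in high-cycle cells of the Il7r stage, at 152, 163, 161 and 135 CPM, against 280, 276, 265 and 266 CPM in low-cycle cells, a log2 ratio of -0.82 (-0.98 to -0.71). In the Dntt stage it was also lower in every library, at 64.6, 74.5, 63.1 and 65.5 CPM in high-cycle cells, against 91.6, 109, 88.3 and 89.4 CPM in low-cycle cells, a log2 ratio of -0.49 (-0.54 to -0.44) that was not called. In the stem gate the log2 ratio was 0.50 (0.31 to 0.60), not called. Lig4 was under 5 CPM on both sides in all 4 gates and was not counted.

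**Figure D4:**
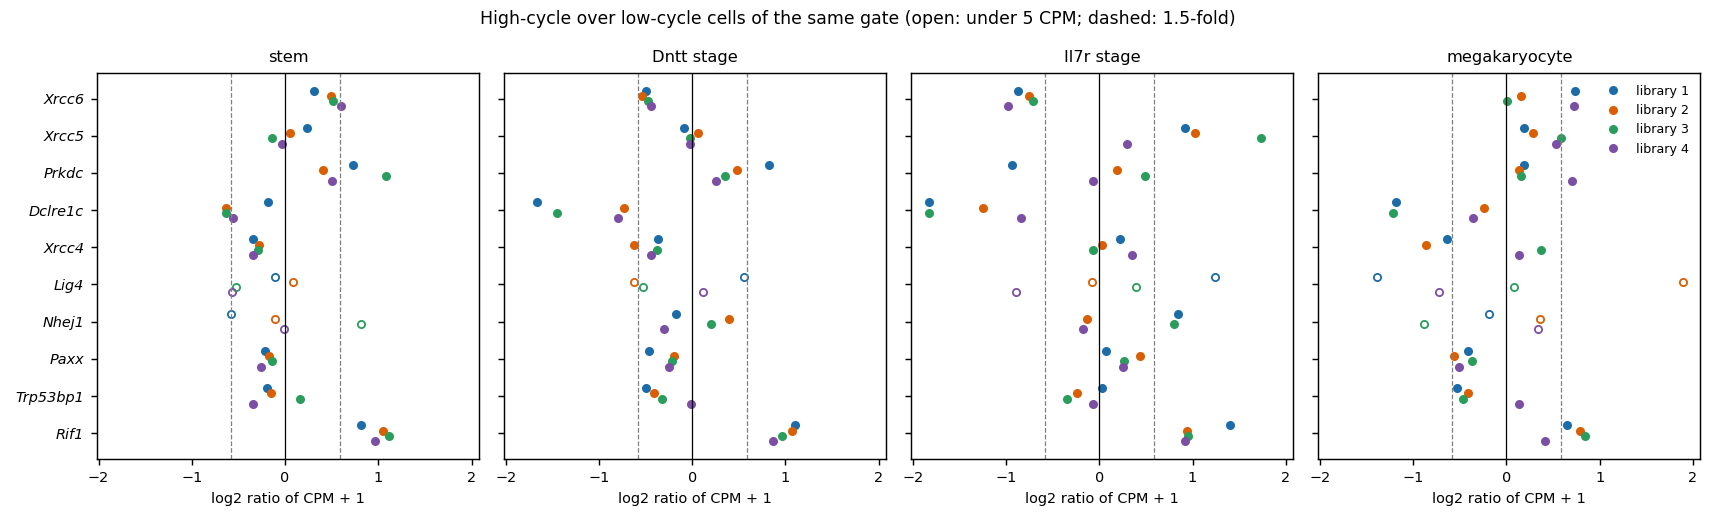
Log2 ratios of CPM plus 1 of high-cycle to low-cycle cells in 4 gates (horizontal axes) for the 10 genes, wide gates, with 1 point for each library, open where the gene was under 5 CPM over both sides, and dashed lines at 1.5-fold. Rif1 lies to the right of 0 in all 4 gates and Dclre1c to the left, and Xrcc6 lies between -0.98 and -0.71 in the Il7r stage.

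A list of 28 other genes that process or signal broken ends was read beside the members. In the Il7r stage 6 of 27 tested were called higher than in stem cells and none lower, where 7.20% of all genes were called higher and 11.3% lower. Of these 6, Rag1, Rag2 and Polq were under 5 CPM in stem cells and passed the filter only through the Il7r stage, so the count is no support. They were Rag1 and Rag2, which encode the recombinase, Poll, a gap-filling polymerase, H2afx, whose product marks breaks, Parp1, a break sensor, and Polq, the polymerase of alternative end joining. Among high-cycle cells Poll, Shld1, Rag1 and Rag2 were called higher, and among low-cycle cells Parp1, Rag1 and Rag2, so H2afx and Polq were called in neither. Over all genes, 4.05% were called higher and 7.62% lower among high-cycle cells, and 5.74% higher and 8.80% lower among low-cycle cells. The planned gates called Tdp1, H2afx, Shld1, Parp1, Rag1 and Rag2 higher and Mad2l2 and Lig3 lower in the 2 libraries reached. With these gates 7.55% of all genes were called higher and 12.9% lower. Rag1 stood at 0.0739 to 0.364 CPM in stem cells, 1.11 to 2.82 CPM in the Dntt stage, 22.8 to 32.1 CPM in the Il7r stage and 88.7 to 134 CPM in the Igll1 stage. Rag2 stood at 6.30 to 7.24 CPM in the Dntt stage, 37.2 to 45.0 CPM in the Il7r stage and 57.8 to 69.6 CPM in the Igll1 stage. Xrcc6 was highest in the Il7r stage and lower in the Igll1 stage, where Rag1, Rag2 and Lig4 were highest of these stages. These levels are a description, and a link between them was not tested. In the Igll1 stage 7 of 26 were called higher than in stem cells: Tdp1, H2afx, Parp1, Xrcc1 (the scaffold of single-strand break repair), Polq, Rag1 and Rag2. Parp3 alone was called lower, at -1.54 (-2.10 to -1.32). Over all genes 12.5% were called higher and 25.4% lower, and Polq, Rag1 and Rag2 passed the filter only through the Igll1 stage. Among high-cycle cells Parp1, Rag1 and Rag2 were called higher and Tdp1, H2afx, Xrcc1 and Polq were not, while Parp3 and Mdc1 were called lower. There 5.49% of all genes were called higher and 19.3% lower. In myeloid cells 3 of 25 were called higher than in stem cells and 2 lower, where 11.0% of all genes were called higher and 24.0% lower. H2afx and Polq were among those called higher, and Polq passed the filter only through myeloid cells. Shld2, a 53BP1 pathway effector, and Parp3 were called lower. Of the 4 genes named, Shld2 was also called among high-cycle cells, where 5.72% of all genes were called higher and 18.0% lower.

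Homologous recombination genes were counted beside the members in the comparison of high-cycle with low-cycle cells. Of 28 tested genes of homologous recombination, 20 were called higher in high-cycle than in low-cycle stem cells, with a median log2 ratio of 2.60 over the list. Over all genes 8.98% were called higher there. Some recombination genes passed the filter only through high-cycle cells, such as Brca1 at 0.526 to 1.05 CPM in low-cycle stem cells, so the count and the median are descriptions. Of 8 members tested, Rif1 was called, and the members' median was -0.08, against 0.00 over all genes. In the Dntt stage 18 of 27 recombination genes were called higher and none lower, and of 9 members Rif1 was called higher and Dclre1c lower, where 7.86% of all genes were called higher and 5.08% lower. Of the other end joining list, 10 of 24 were called higher in high-cycle than in low-cycle stem cells, with H2afx at 3.32 and Polq at 2.54. Polq was under 5 CPM in stem cells and passed the filter only through high-cycle cells, so this count is also a description.

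Correlations of log2(CPM + 1) over the 24 points of 6 gates and 4 libraries describe which members moved alike. The points share libraries and gates, so they are not independent. Xrcc4 and Trp53bp1 were the most alike pair, with r = 0.90. Dclre1c and Trp53bp1 followed, with r = 0.80, and Prkdc and Rif1, with r = 0.80. Prkdc, Rif1, Dclre1c and Trp53bp1 were also highest in library 2 in stem cells. Differences between libraries thus enter these correlations beside those between gates, and their parts were not separated. Xrcc6 and Xrcc5 had r = 0.07, and Xrcc4 and Lig4 r = -0.23. Among 5807 genes at 20 CPM or more, those most like Xrcc6 were Mta3 (r = 0.98), Arpp21 (0.96) and Wasf2 (0.95). Those most like Lig4 were Cecr2 (0.96), Pax5 (0.96) and Id3 (0.95), and those most like Xrcc5 were Mbp (0.96), Tsen15 (0.94) and Inka1 (0.93). Lig4 was high only in the Igll1 stage, so its correlations in this paragraph rest on that gate and are no support. Prkdc ran most like Atr (0.86), a checkpoint kinase, and Brca2 (0.85), of homologous recombination, and Trp53bp1 most like Rbm5 (0.97), Dido1 (0.96) and Pnisr (0.96). Rif1 ran most like Thrap3, Snrnp200 and Rbm25 (each 0.92). The nearest genes were Oga (0.92) for Dclre1c, Wbp1 (0.92) for Xrcc4, Vav1 (0.82) for Nhej1 and Pink1 (0.94) for Paxx. These 6 gates were chosen after the data had been seen. Over the 28 points of the 7 planned gates, where the mature B gate held few UMIs, other genes stood nearest, Ggta1 (0.90) for Xrcc6, Phactr4 (0.90) for Xrcc5 and Bcl7a (0.83) for Lig4.

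Cells of the mature B gate (Ms4a1, Ighd and Cd79a UMIs, no Igll1) numbered 107, with a median of 2180 UMIs, and 2 libraries had 30 or more. Members had 0 to 5 UMIs per library there. Pooled over the 4 libraries, Xrcc6 had 6 UMIs, or 18.0 CPM (6.62 to 39.2), Lig4 1 UMI, or 3.01 CPM (0.0761 to 16.7), and Nhej1 none, which allows up to 11.1 CPM at the upper bound of its exact interval. The size rule called Xrcc6, Xrcc5, Lig4 and Rif1 lower than in the Igll1 stage, against 20.0% of all genes lower and 16.8% higher. Lig4 had 0 UMIs in both libraries used, with upper bounds of 35.9 and 33.5 CPM that lie above its Igll1 stage levels of 12.4 and 23.1 CPM, and passed the filter only through the Igll1 stage. Xrcc5 had 1 UMI in library 3, with an interval of 0.246 to 54.2 CPM that spans its Igll1 stage level of 23.5 CPM. At this depth no difference of Lig4 or Xrcc5 can be read, and with so few UMIs no ratios are given.

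Library 2 stood above the other libraries for several members in the same cell type. In stem cells its log2 ratio to the median of the others was 0.61 for Prkdc, 0.52 for Rif1, 0.51 for Dclre1c and 0.35 for Trp53bp1, against a median of 0.16 over all genes. Rif1 and Trp53bp1 were also highest in library 2 in megakaryocyte cells, at 0.44 and 0.52, against 0.15 over all genes. High-cycle cells made up 14.5%, 19.0%, 10.7% and 10.5% of stem cells in libraries 1 to 4. Among low-cycle stem cells Rif1 stood at 76.0, 95.8, 70.5 and 74.7 CPM. Whether library 2 is mutant or WT is not given, and what sets it apart was not tested. Barcode sequences that occurred in 2 or more libraries numbered 209.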

How the data were processed

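The deposited table holds unscaled UMI counts by gene and barcode. The authors ran Cell Ranger (version 6.1.2 per the file headers) with the mm10 build, which the submitters' processing notes name. The assay was 10x Genomics 3′, with 20000 cells per sample as input, per the labels' protocols. Libraries were read from the 4 barcode suffixes.

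Cells needed 500 or more genes and no more than 10% mitochondrial UMIs (41122 cells). No doublet caller was run, and cells passing 2 gates (3 cells) were left out. UMIs were summed per gate and library and scaled to CPM, and log2 ratios of CPM plus 1 were taken within a library. Genes used for gating and 32 cycle genes were left out of the background. Depth was 112027160 to 144385614 UMIs per library. The script was tested on simulated counts (Python 3.11.15, NumPy 2.4.6, SciPy 1.17.1, pandas 2.3.3). Named genes were all members, genes of the other end joining list that were called, and the 3 genes most correlated with a member. A called gene of the other end joining list and the marker check of the Igll1 stage are not reported here. Members, gates and lists were chosen with earlier results of these data known. Gene positions are from GENCODE and promoters from RefSeq. Whether aggregation evened depth between libraries is not given in the sources used here.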

Additional observations from a re-analysis of the deposited data

How the results depend on the processing

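No paired analysis was possible because no label ties the libraries to the numbered samples. The log2 ratio of Xrcc6 stayed between 1.04 and 1.37 for the Dntt stage over stem cells and between 1.22 and 1.41 for the Il7r over the Dntt stage in all alternatives of the planned gates. Counts that moved by more than 1.5 times mostly came from the planned Il7r gate, which reached 2 libraries. The cause was not tested. Leaving out either of these leaves a single library, so agreement between libraries is then not required. The counts below stand without the share of all genes called under the same setting. They show only how far the number of called members moved, and cannot be read against a background.

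For the planned gates, members called higher in the Il7r than in the Dntt stage numbered 1 (main value 2) with a pseudocount of 5 CPM, with genes at 20 CPM or more, at 2-fold and without the Nkg7 condition. Members called lower there numbered 3 with a mitochondrial limit of 5%, 1 as the mean over cells, and 0 to 2 without single libraries (main value 0). In the Igll1 over the Il7r stage, members called higher (main value 1) numbered 0 with a pseudocount of 5 CPM, with genes at 20 CPM or more, at 2-fold and without the 8% of cells with the most UMIs, 2 with a mitochondrial limit of 5%, and 1 to 3 without single libraries. Those called lower (main value 3) numbered 1 when centred, 1 without the Nkg7 condition, 0 at 2-fold, and 3 to 5 without single libraries. Xrcc5 in this comparison reversed to -0.19 without the Nkg7 condition. In the mature B gate, where members had 0 to 5 UMIs per library, members called lower numbered 2 with genes at 20 CPM or more (main value 4), and those called higher 2 without the 8% of cells with the most UMIs and 0 to 2 without single libraries. In myeloid over stem cells, members called lower (main value 3) numbered 1 with genes at 20 CPM or more and 1 at 2-fold, and those called higher 1 when centred and 0 to 1 without single libraries, Nhej1 being called without library 1. Nhej1 passed the filter in that comparison only through myeloid cells.

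For the wide gates, where counts of members higher in the Igll1 stage include Lig4, members called lower in the Igll1 stage than in stem cells (main value 2) numbered 1 with a pseudocount of 5 CPM, with stricter gates, when centred and among high-cycle cells, and 0 at 2-fold, and those called higher 1 with genes at 20 CPM or more. In the Igll1 over the Il7r stage, 0 were called higher with genes at 20 CPM or more, and those called lower numbered 2 with stricter gates, 0 at 2-fold and 1 to 2 without single libraries. In the Il7r stage over stem cells 1 was called lower among low-cycle cells. In the Dntt stage over stem cells 0 were called higher among high-cycle cells. At 2-fold, 0 members were called in either direction in the high-cycle over low-cycle comparisons, where the stem gate (higher), the Dntt stage and the Il7r stage had calls. With a pseudocount of 5 CPM, members called lower numbered 0 in the Dntt stage and 1 in the Il7r stage. Without library 4, members called higher numbered 2 in the Il7r stage (1 to 2 over all libraries left out) and 1 in megakaryocyte cells (0 to 1). The alternative with resting cells only and the 3 planned cycling contrasts had too few cells for a value.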
